A study of Mus musculus with 9 samples.

Results

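The regions described here carried a reproducible DPPA4 peak in P19 and in 3T3 cells but not in E14 cells. They were chosen by the peak lists themselves. Within a line, peaks that met between its 2 lists were joined into reproducible regions. Those of the 3 lines were then joined wherever they met, and a merged region was kept if it held a P19 and a 3T3 region and no E14 region. This gave 501 regions among 45616 merged regions (1.10%). P19 and 3T3 together held 7543 merged regions, so the 501 were 6.64% of these (Wilson 95% interval 6.10 to 7.23). They were 1.56% of the regions that P19 held and 4.54% of those that 3T3 held. Presence and absence in the 3 lines are therefore not findings about these regions, and none of the values below carries a test.

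The data are chromatin immunoprecipitation sequencing (ChIP-seq) with an antibody against DPPA4 in 3 mouse lines, with 2 immunoprecipitated libraries per line. E14 are embryonic stem cells, kept free of feeders on gelatin in 2i medium, a mix of inhibitors that holds them in a naive state. P19 are embryonal carcinoma cells and 3T3 are fibroblasts that expressed Dppa4 ectopically, both in DMEM with serum. How Dppa4 was brought into the 3T3 cells, and whether replicate libraries stem from separate cultures, is not given in the sources used here, so the spread between libraries may be technical. List lengths were 61693 and 43443 peaks for the E14 libraries, 40011 and 51196 for those of P19 and 15462 and 17540 for those of 3T3. Read depth is unknown, and a missing peak may be an unbound site or one below detection.

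DPPA4 (developmental pluripotency associated 4) is a nuclear protein with a SAP domain, a fold that binds DNA, and it acts as a pair with its relative DPPA2. Both are made in the early embryo and in pluripotent cells and are silent in most differentiated cells. In embryonic stem cells the pair is known for its place at promoters of developmental genes that carry activating and repressive histone marks at once, and for keeping such promoters free of DNA methylation. Fibroblasts with ectopic Dppa4 show where the protein can settle in a cell that is not pluripotent.

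The label "without E14" holds for the reproducible set, but not for single E14 libraries. Of the 501 regions, 382 (76.2%, interval 72.3 to 79.8) held a peak of at least 1 E14 library. A peak of E14 replicate 2 alone lay in 222 regions (44.3%), and a peak of E14 replicate 1 alone lay in 144 (28.7%). Another 16 regions (3.19%) held peaks of both libraries that did not touch each other. No E14 peak was found in 119 regions (23.8%, interval 20.2 to 27.7). Among all 8727 merged regions with no E14 reproducible region, 54.5% held a peak of at least 1 E14 library. This contrast entered the choice of the regions, so nothing is read from the gap.

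Regions of P19 alone and of 3T3 alone held E14 peaks in a lower share. The same E14 lists entered the choice of all 3 kinds, so these shares are description and nothing is read from their difference. Such a peak was present in 54.7% of the 6234 regions of P19 alone (interval 53.5 to 56.0) and in 48.3% of the 1992 regions of 3T3 alone (46.2 to 50.5). In the regions of P19 alone, 43.2% held a peak of E14 replicate 1 only and 11.4% one of replicate 2 only, the reverse order of the regions shared by P19 and 3T3. In the regions of 3T3 alone the values were 20.2% and 27.2%. The 3 kinds had the same order in median width as in the share with a peak of E14 replicate 2 alone, but another order in the share with any E14 peak. Regions shared by P19 and 3T3 had a median width of 967 bp, while those of P19 alone measured 515 bp and those of 3T3 alone 839.5 bp, and a median peak spanned 411 bp in E14 replicate 1 and 772 bp in replicate 2. The part of width in these shares was not tested. With every peak set to 500 bp, 30.3% of 565 regions held a peak of E14 replicate 1 only and 39.5% one of replicate 2 only. The order turned with the best-scoring 50% of each list, at 36.9% and 22.5% of 320 regions. With lists of 15462 peaks, replicate 2 alone was the more frequent in regions of P19 alone too, at 21.8% against 16.7%.

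**Figure D1:**
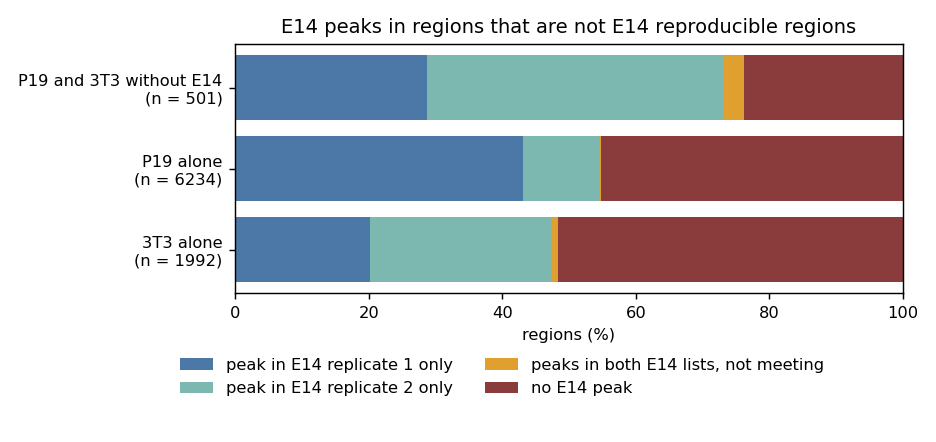
Share of regions (horizontal axis, %) with a peak in E14 replicate 1 only, in E14 replicate 2 only, in both lists without touching, or in neither, for the 3 kinds of region without an E14 reproducible region (bars). Regions of P19 and 3T3 had no E14 peak in 23.8%, against 45.3% of P19 alone and 51.7% of 3T3 alone. The E14 lists entered the choice of these regions, so nothing is read from the difference.

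The E14 peaks in the regions were of low to middle rank, and most touched the bases that P19 and 3T3 shared. In E14 replicate 1, the 160 regions with a peak had a median percentile of 37.9 in that list (lowest 0.414, highest 80.5). In E14 replicate 2, the 238 regions with a peak had a median of 37.6 (0.659 to 70.9). The counts of 160 and 238 both include the 16 regions with peaks of both libraries. Regions that E14 held reproducibly had medians of 69.1 and 57.0 in the same lists. The rule left out regions where the E14 lists met, so nothing is read from this difference. For comparison, the E14 peaks in regions of P19 alone had medians of 35.6 and 21.6, and those in regions of 3T3 alone 28.8 and 24.4. Of the 174 peaks of E14 replicate 1 found in the regions, 162 (93.1%) touched bases held by both P19 and 3T3, and 231 of 247 peaks of replicate 2 did so (93.5%). Few of these peaks thus missed the shared bases altogether. A touch of 1 bp sufficed, and no matching share was worked out for other regions, so nothing more is read from these values.

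In P19, the regions sat near the middle of the lists and below most other P19 regions. Their median percentile was 39.9 in P19 replicate 1 and 51.1 in replicate 2, a mean of 45.5 ± 7.93 (SD, n = 2). Single regions ran from 0.594 to 98.1 in replicate 1 and from 0.135 to 99.96 in replicate 2. Regions of all 3 lines had a mean P19 median of 71.5 ± 5.74, and regions of E14 and P19 without 3T3 had 69.1 ± 5.51 (SD, n = 2). Regions of P19 alone were lower still, at 38.0 ± 7.76. In each P19 list, the median of the regions shared with 3T3 lay above that of P19 alone and below both kinds that E14 held.

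In 3T3, the same regions again sat near the middle of the lists. Their median percentile was 55.1 in 3T3 replicate 1 and 59.5 in replicate 2, a mean of 57.3 ± 3.06 (SD, n = 2). Regions of all 3 lines had 72.7 ± 3.80, regions of E14 and 3T3 without P19 had 62.9 ± 5.71, and regions of 3T3 alone had 45.6 ± 6.65. The order of the 4 kinds was the same in both 3T3 lists. A percentile shows the place within a list, and the 3T3 lists were shorter than the P19 lists, so the values of the 2 lines are not amounts that can be set against each other.

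**Figure D2:**
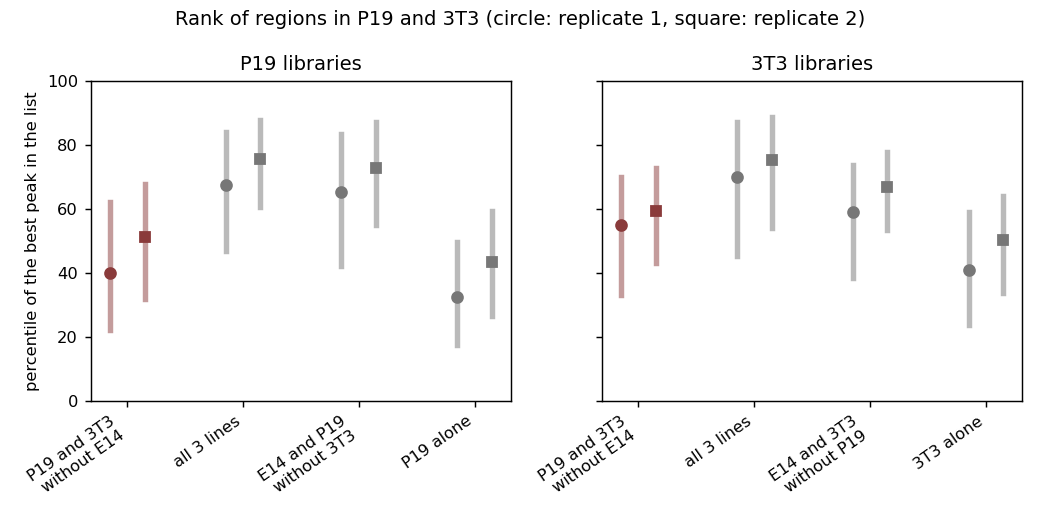
Percentile of the best peak of a region within its list (vertical axis) in the P19 libraries (left) and the 3T3 libraries (right), for the regions of P19 and 3T3 without E14 and for the other combinations held by that line. Circles are replicate 1, squares replicate 2, and bars span the quartiles. In all 4 libraries the regions without E14 lie between those of all 3 lines and those of a single line.

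Regions of P19 and 3T3 were missing from E14 mostly where P19 ranked them low. When the 7543 regions of both lines were ordered by their mean P19 percentile, 180 of 754 regions in the lowest decile lacked an E14 region (23.9%, interval 21.0 to 27.0). In the next decile the share was 12.3% (10.2 to 14.9), in the fifth 3.98% (2.80 to 5.62), and in the highest 2 of 755 (0.265%, 0.0727 to 0.961). Ordered by 3T3 percentile, the share was nearly level over the lower part, with 9.15% in the lowest decile and 10.6% in the fifth, and then went down to 1.32% in the highest. In the highest decile of either order, 0 of 755 regions lacked a peak in both E14 lists, which allows a share of up to 0.397%. The highest P19 decile stayed below the lowest under each alternative computed for it, which left out the replicate block. The share in the lowest decile was 13.1% without E14 replicate 1 and 44.4% without P19 replicate 1, and the share in the highest was 0% and 0.442%. With lists of 15462 peaks those shares were 40.4% and 3.64% by P19, and 17.4% and 9.52% by 3T3. With the best-scoring 50% of each list they were 32.7% and 2.52% by P19, and 21.7% and 3.14% by 3T3. Where 1 list sufficed for P19 and 3T3, the lowest deciles were at 56.6% by P19 and 19.1% by 3T3. With peaks of 500 bp the highest decile was at 1.89% by P19 and 2.16% by 3T3. Without P19 replicate 1 the lowest 3T3 decile was at 16.9%. The highest 3T3 decile was at 0.397% without E14 replicate 1 and at 0.530% without E14 replicate 2, and the highest P19 decile at 0.0935% without 3T3 replicate 1.

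**Figure D3:**
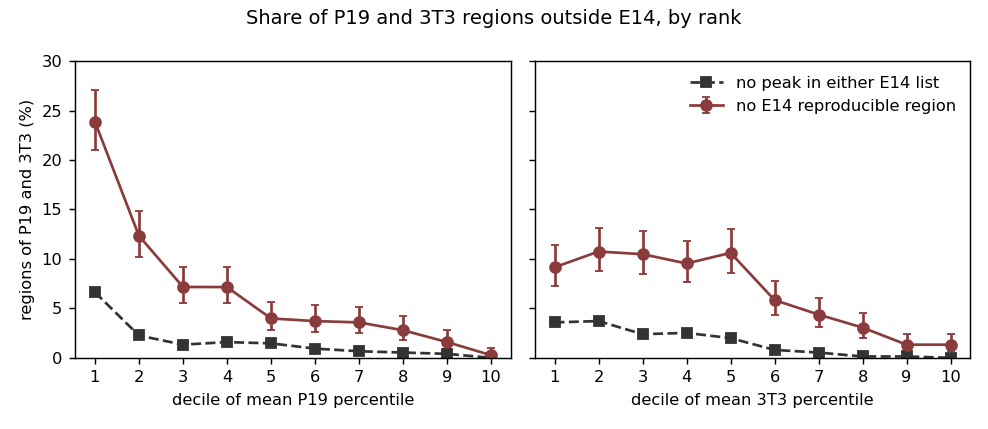
Share of the regions held by P19 and 3T3 (vertical axis, %) that lacked an E14 reproducible region (circles, with Wilson 95% intervals) or any E14 peak (squares), by decile of the mean percentile in P19 (left) or 3T3 (right). By P19 rank the share went from 23.9% to 0.265%, and by 3T3 rank it was about level until the fifth decile.

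Ranks in P19 and in 3T3 were nearly unrelated across the regions. Over the 501 regions, the Spearman correlation of percentiles was 0.69 for the P19 replicates and 0.72 for the 3T3 replicates. For a P19 with a 3T3 library it ranged from -0.13 to 0.01. These values describe an order across regions, which share their libraries and are not replicates. They were not worked out for other kinds of region, so the weak relation is not read as particular to the 501. Absence from E14 went with rank in both lines, and the part of that choice in these values was not tested. Mean percentiles lay above 50 in both lines in 109 regions (21.8%) and below 50 in both in 110 (22.0%). Regions above 50 in 3T3 and below 50 in P19 numbered 188 (37.5%), and the opposite kind 94 (18.8%). In lists of unlike length 50 is not a common level, so nothing is read from the difference between these counts. Only 4 regions exceeded 75 in all 4 lists.

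Regions with no E14 peak stood lower in the 3T3 lists than those with one. Their medians in 3T3 were 41.7 and 49.2, against 59.3 and 65.6 where E14 replicate 2 alone had a peak and 50.5 and 57.0 where E14 replicate 1 alone had one. The 16 regions with separate peaks in both E14 lists stood highest in 3T3, at 72.8 and 83.1. The 3T3 libraries showed this order both times. In P19 the medians of the 4 kinds ranged only from 36.4 to 41.9 in replicate 1 and from 48.3 to 52.6 in replicate 2. Median widths were 920 bp with no E14 peak, 939 and 990.5 bp with a peak of replicate 1 or replicate 2 alone, and 1360 bp with both. The part of width in the order was not tested.

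**Figure D4:**
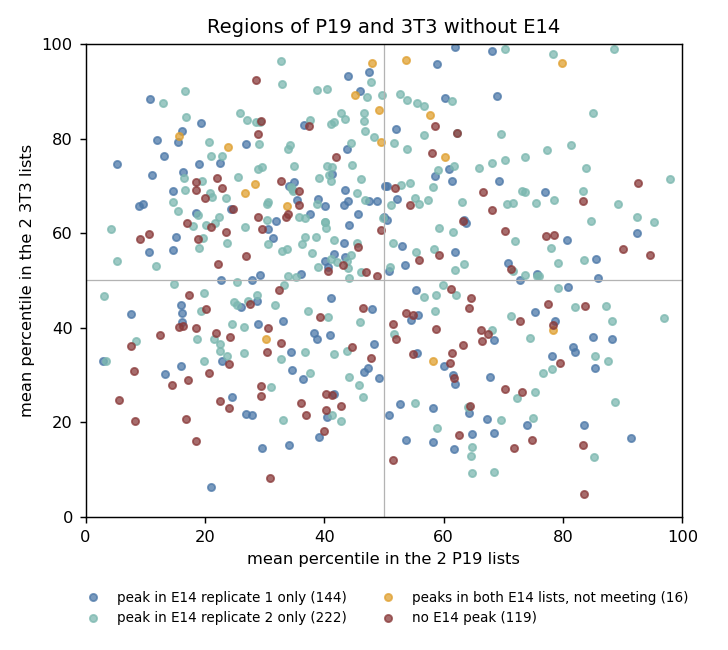
Each point is 1 of the 501 regions, placed by its mean percentile in the P19 lists (horizontal axis) and in the 3T3 lists (vertical axis), with colours for its E14 peaks. Grey lines mark 50. The cloud shows no slope, and the upper left part, above 50 in 3T3 and below 50 in P19, holds the most points (188).

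The rule required the P19 and 3T3 parts of a region to share at least 1 bp, so only the extent of their overlap is described. The P19 part had a median width of 591 bp and the 3T3 part 892 bp, with a median of 550 bp in common. In 344 of the 501 regions (68.7%) the shorter part lay wholly inside the longer one. In 493 (98.4%) a P19 and a 3T3 region shared at least 50% of the shorter one, close to the 99.5% among regions of all 3 lines. The distance between the midpoints of the parts had a median of 94 bp, against 89.5 bp in regions of all 3 lines. The smallest overlap was 3 bp. The 3T3 part was the wider one in 402 regions (80.2%), and in 68.7% of the regions of all 3 lines. Peaks of 3T3 replicate 2 were wide throughout their list, at a median of 872 bp, while those of replicate 1 spanned 400 bp.

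Distances to E14 regions were much like those of the other regions outside E14. The median distance to the nearest E14 reproducible region was 10.9 kb, against 10.5 kb for P19 alone and 11.1 kb for 3T3 alone. Within 10 kb of an E14 region lay 242 of the 501 (48.3%, interval 44.0 to 52.7), 48.7% of P19 alone and 47.1% of 3T3 alone. Of the 119 regions with no E14 peak inside, 74 (62.2%) had one within 10 kb, and the median distance to the nearest was 5.84 kb. Among such regions of P19 alone the values were 65.3% and 5.39 kb, and among those of 3T3 alone 64.5% and 5.51 kb.

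Chromosome 11 held the most regions, 64 of 501 (12.8%, interval 10.1 to 16.0). It held 7.88% of all merged regions and 8.90% of the regions of all 3 lines. The density there was 0.539 regions per Mb, against 0.377 on chromosome 19, 0.369 on chromosome 17 and 0.0773 on chromosome 1. As a share of all merged regions on the same chromosome, chromosome 11 was close to some others. This share was 1.78% on chromosome 11, 1.70% on 19, 1.69% on 6, 1.54% on 17 and 0.578% on 1. Chromosome 19 held 22 regions (4.39%), against 2.84% of all merged regions. Chromosomes 6 and 7 held 40 regions each (7.98%), against 5.18% and 6.61% of all merged regions. Chromosome 1 held 15 (2.99%, interval 1.82 to 4.88), against 5.69%, and chromosome 9 held 14 (2.79%, 1.67 to 4.64), against 4.80%. The share on chromosome 11 ranged from 10.4% to 15.0% over the alternatives computed for it. Among the regions with no E14 peak it was 17 of 119.

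The X chromosome held few regions, but a large share of those that P19 and 3T3 had in common there. It held 13 of the 501 (2.59%, interval 1.52 to 4.39), near the 3.04% of all merged regions and above the 0.951% of the regions of all 3 lines. Of the 80 regions of P19 and 3T3 on X, the 13 were 16.3% (9.75 to 25.8), against 6.64% over the genome and 9.26% on chromosome 11. Peaks of E14 replicate 1 alone lay in 6 of the 13, peaks of replicate 2 alone in 4, and no E14 peak in 3. The nearest E14 reproducible region was 85.8 kb away at the median on X, against 10.1 kb on the autosomes. Merged regions of any kind were sparse on X, with 1386 over 163.6 Mb, against 2043 over 156.5 Mb on chromosome 3. Distances on X were not worked out for regions of P19 alone or 3T3 alone, so the long distance is not read as particular to the 13. The X share rests on few regions. It was 8.75% (7 of 80) without E14 replicate 2, against 4.58% over the genome, and 9.38% (21 of 224) without 3T3 replicate 1, against 7.71%. With the best-scoring 50% of each list it was 30.8% (4 of 13). With lists of 15462 peaks the X share was 17.1%, below the 23.5% over the genome, and where 1 list sufficed for P19 and 3T3 it was 15.4% (46 of 299), against 15.6%.

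**Figure D5:**
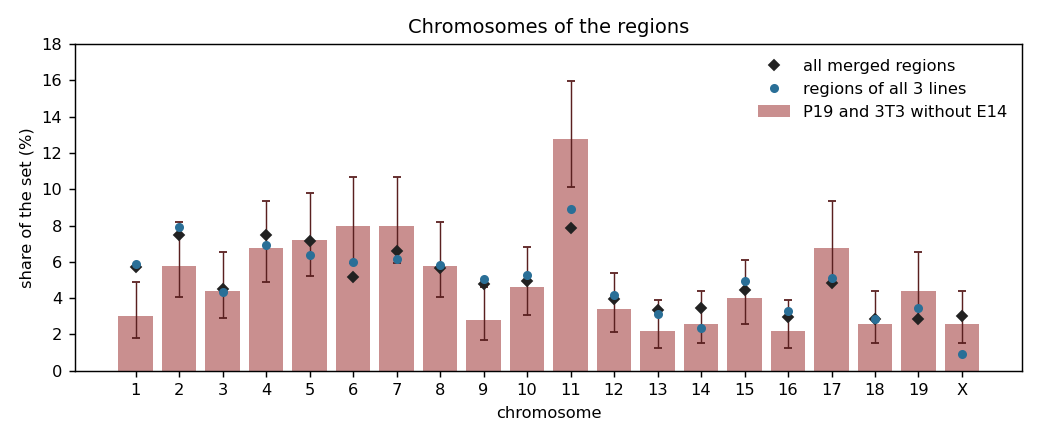
Share of each set (vertical axis, %) on each autosome and the X chromosome (horizontal axis). Bars with Wilson 95% intervals are the regions of P19 and 3T3 without E14, diamonds all merged regions and circles the regions of all 3 lines. Chromosome 11 had the largest share of the regions, 12.8%, against 7.88% and 8.90%.

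Most regions had no other of the 501 within 50 kb. Spacing was not worked out for other sets of regions, so it is not read as particular to these. The median gap between neighbours on a chromosome was 1.51 Mb, and 53 of the 501 regions lay in 26 runs whose members followed within 50 kb. Of these runs 25 were pairs. The only run of 3 lay on chromosome 6 from 52140791 to 52176506. Its first region, from 52140791 to 52141732, held a peak of E14 replicate 1 alone, the middle one, from 52166546 to 52168045, had no E14 peak, and the last, from 52175366 to 52176506, held a peak of E14 replicate 2 alone. This run was chosen for description after its values were seen. In windows of 5 Mb, the most regions lay on chromosome 10 from 75 to 80 Mb, with 10 of the 378 merged regions there (2.65%). The next were chromosome 11 from 115 to 120 Mb with 8 of 500 (1.60%), then chromosome 11 from 100 to 105 Mb with 7 of 276 (2.54%) and chromosome 17 from 25 to 30 Mb with 7 of 411 (1.70%). Against 1.10% over all merged regions, each of these windows was above the average, as the windows with the most members would tend to be.

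Closely spaced pairs showed how the merging of peaks draws boundaries. On chromosome 4, the regions from 132566995 to 132568788 and from 132568810 to 132570008 were 21 bp apart. The first had percentiles of 5.51 and 52.9 in P19 and 77.0 and 90.0 in 3T3. The second had 78.6 and 84.1 in P19 and 80.1 and 77.0 in 3T3, so P19 ranked the second higher and 3T3 ranked both high. On chromosome 14, the regions from 70477128 to 70479127 and from 70479197 to 70480623 were 69 bp apart. A single peak of E14 replicate 2, which scored 243, reached into both. On chromosome 2, the regions from 33497269 to 33498314 and from 33498389 to 33499184 were 74 bp apart, and the second, with no E14 peak inside, was 114 bp from one.

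Wide regions were frequent among the strongest. More than 2000 bp was spanned by 6 of the 10 regions with the highest mean percentile over the P19 and 3T3 lists and by 19 of the 501. Of these 10, 9 held an E14 peak, against 76.2% of the 501, and 6 held one in replicate 2 alone, against 44.3%. Within 10 kb of an E14 reproducible region lay 7 of the 10, against 48.3%. The first, on chromosome 17 from 66713379 to 66714227, had percentiles of 88.4 and 88.7 in P19 and of 99.3 and 98.7 in 3T3, and its peak in E14 replicate 2 stood at 26.4. It was 5425 bp from the nearest E14 region. On chromosome 17 from 30023408 to 30026923 the percentiles were 70.9 and 85.8 in P19 against 96.4 and 99.2 in 3T3, while E14 replicate 2 gave 53.2. On chromosome 11 from 85645274 to 85647361 P19 gave 83.9 and 76.0 and 3T3 gave 94.3 and 97.6, with separate E14 peaks at 42.9 and 61.7. In both 3T3 lists, all 3 regions were among the top 10% of peaks. High percentiles of the 10 regions follow from the choice, which used the P19 and 3T3 lists.

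The other strong regions were near the top of the lists of 1 line or high in all 4. On chromosome 15 from 98621836 to 98623694, P19 had percentiles of 96.0 and 99.96 and 3T3 had 70.7 and 72.1, with 63.2 in E14 replicate 2. Near the top of the 3T3 lists were regions on chromosome 19 from 44829559 to 44832301, X from 99445609 to 99447713, and chromosome 11 from 120097696 to 120099744. Their percentiles in 3T3 were between 98.1 and 99.6, and in P19 between 60.3 and 78.3. The one on X lay 308221 bp from the nearest E14 region, the longest distance among the 501, although it held a peak of E14 replicate 1 at percentile 65.4. The one on chromosome 11 held a peak of E14 replicate 1 at 75.6. Apart from a region on chromosome 2 described next, the remaining ones were on chromosome 5 from 110535431 to 110537460, with percentiles of 81.0 and 89.2 in P19 and 84.5 and 86.3 in 3T3, and the second region of the chromosome 4 pair above.

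Among the regions with no E14 peak, the 5 strongest were taken by mean percentile over the P19 and 3T3 lists. High percentiles in these lists therefore follow from the choice. The region on chromosome 2 from 158664514 to 158665454 led them and was also among the 10 strongest of all. It scored 1223 and 2262 in P19 (percentiles 90.8 and 94.2) and 217 and 243 in 3T3 (77.1 and 64.0), and the nearest E14 peak was 3213 bp away. On chromosome 19 from 45227611 to 45229133 P19 gave percentiles of 84.3 and 82.5 and 3T3 of 72.0 and 61.6. On chromosome 17 from 7031858 to 7033037 P19 gave 94.5 and 94.7 and 3T3 gave 57.4 and 53.4, with no E14 peak for 11696 bp. On chromosome 7 from 29581418 to 29582496 P19 gave 89.3 and 90.7 and 3T3 gave 71.3 and 42.2. The fifth, on chromosome 3 from 89233688 to 89234847, had percentiles of 62.4 and 62.2 in P19 and 82.1 and 80.2 in 3T3.

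The extremes of size were not the extremes of rank. The widest region, 4428 bp on chromosome 14 from 26276657 to 26281084, had percentiles of 38.3 and 57.5 in P19 and 85.5 and 98.4 in 3T3. The narrowest, 340 bp on X from 84483557 to 84483896, had 38.9 and 43.3 in P19 and 41.7 and 50.7 in 3T3. The lowest mean percentile, 13.7, was that of a region of 515 bp on chromosome 5 from 38797895 to 38798409. It scored between 51.7 and 71.4 in the P19 and 3T3 lists but 187 in E14 replicate 1, where it stood at percentile 63.1. Of the 501 regions, 7 spanned 2500 bp or more. Chromosome 4 beyond 140 Mb held 3 of the 501. A score of 3100 or more, where many peaks are tied, was reached by 2 regions, each in 1 P19 list, and by none in a 3T3 list. The matching shares over all merged regions were not worked out, so nothing is read from these counts.

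In the 3 regions closest to the E14 criterion on either side, the percentiles of the E14 peaks overlapped in range. This holds for these few regions only. Over all regions, the E14 peaks in the 501 had lower medians (37.9 and 37.6) than those in regions that E14 held (69.1 and 57.0). The E14 lists entered the choice of both kinds, so nothing is read from that difference. By the gap between E14 peaks inside a region, the one closest to entering E14 was on chromosome 1 from 74818143 to 74819090. The next were on chromosome 3 (from 100292176 to 100293529) and chromosome 12 (from 112908590 to 112909955). In these 3 regions the peaks of the E14 libraries missed each other by 5, 19 and 23 bp and stood at percentiles 22.5 and 28.2, 4.29 and 51.6, and 37.7 and 35.6. Just outside were regions of all 3 lines on chromosome 10 (from 79378879 to 79380380), chromosome 7 (from 147019637 to 147020800) and chromosome 9 (from 21041287 to 21042518). There the E14 peaks met over 1, 29 and 59 bp and stood at percentiles 24.8 and 38.7, 24.1 and 58.1, and 25.7 and 8.90. Of the 501 regions, 16 held peaks of both E14 libraries, at gaps of 5 to 2233 bp with a median of 86 bp. In 4 of the 7042 regions of all 3 lines the E14 peaks met over less than 100 bp, a limit not set for the 16. By the distance to an E14 reproducible region, 10 of the 501 lay less than 100 bp from one, and the nearest was the region on chromosome 12, at 1 bp.

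The size of the set changed when a library was left out. A line left with 1 list took all its peaks, so the criterion for that line changed as well. The part of the library and that of the criterion cannot be told apart. The set held 263 regions when E14 replicate 1 was left out, 1041 when P19 replicate 1 was, and 823 when 3T3 replicate 1 was. Its members changed with the number of peaks admitted. Limited to 15462 peaks per list, the rule kept 837 regions, and they overlapped 85 of the 501 (17.0%). With the best-scoring 50% of each list it kept 320, which overlapped 67 of the 501 (13.4%).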

How the data were processed

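DPPA4 ChIP-seq peak lists of 6 libraries, 2 per line, were used. The input libraries were not used here. Per the submitters' processing notes, the tools were CASAVA 1.8, bcl2fastq 1.8, BWA 0.7.13-r1126 and SAMtools 1.3, with build mm9. Peak names begin with MACS, a peak caller for which the sources used here give no settings. The score deposited with each peak has no named scale, so it was turned into a percentile within its list (100 is the strongest).

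Lines and replicates were taken from the sample titles. Overlap meant at least 1 shared bp. A region took the percentile of its best peak in a library. Wilson 95% intervals cover counting error only and treat regions as independent. No significance test was run, because the peak lists themselves chose the regions. The regions, the rules and the comparisons were chosen with earlier results of these data known.

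Regions named individually were the 10 with the highest mean percentile over the P19 and 3T3 lists, the 5 highest with no E14 peak, the 3 on either side of the E14 criterion, the widest, the narrowest, the lowest, and the 3 closest pairs. Others are said to have been chosen after their values were seen. The gene and promoter tables at hand belong to GRCm38, so no region was assigned to a gene and no sequence was read. Alternatives tried were the best-scoring 50% of each list, lists cut to the 15462 best peaks (the shortest list), a shared stretch of 50% of the shorter peak, autosomes alone, peaks of 500 bp, other criteria of presence, each library left out, and lists of equal replicate number. Where a library was left out, the line kept 1 list and all peaks of that list counted as present. Tools were pandas 2.3.3, NumPy 2.4.6 and SciPy 1.17.1 under Python 3.11.15, with Matplotlib 3.10.9 for figures. The overlap code was tested on simulated data.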

Additional observations from a re-analysis of the deposited data

How the results depend on the processing

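The share of regions on chromosome 11 stayed within its interval under the 8 alternatives planned for it. Orders that turned include the E14 replicate more often found alone in the regions, with the best-scoring 50% of each list (36.9% for replicate 1 and 22.5% for replicate 2), and the share on X without E14 against that over the genome, with 15462 peaks per list (17.1% and 23.5%) or 1 sufficient list in P19 and 3T3 (15.4% and 15.6%). Counts moved with the lists and the criterion: 320 regions with the best-scoring 50% of each list, 837 with 15462 peaks per list, 119 where no E14 peak was allowed, and 2229 where 1 list sufficed in P19 and 3T3. The last 2 follow from a stricter and a looser criterion. For the best-scoring 50%, lists of 15462 peaks and the looser criterion, the share with an E14 peak was 60.6%, 55.1% and 63.5%. The P19 percentile was 34.6 and 32.5 for the best-scoring 50% and the looser criterion. The 3T3 percentile was 49.3, 61.9 and 44.9 for the 3 settings, and 45.5 with no E14 peak allowed. The share within 10 kb of an E14 region was 30.9% and 24.4% for the shorter lists, and by construction 34.9% within 5 kb and 85.6% within 50 kb. The share of P19 and 3T3 regions that met over 50% of the shorter one was 100% by construction when that overlap was required throughout. Where none is named, the cause was not tested. Leaving out a library gave 263 to 1041 regions, 70.4% to 74.5% with an E14 peak, percentiles of 32.2 to 45.2 in P19 and 45.3 to 57.3 in 3T3, 47.3% to 59.0% within 10 kb, and 97.6% to 99.5% meeting over 50%. The line that lost a library kept 1 list, whose peaks were all taken, so its criterion changed too. Without an E14 library the share with an E14 peak could not be given, since the rule then fixes it.

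With a replicate block, using only lists of the same number, replicate 1 gave 655 regions and replicate 2 gave 1050, a mean of 852.5. The mean percentiles were 31.2 in P19 and 43.7 in 3T3, and 62.1% lay within 10 kb of an E14 region. A single list per line then sufficed. Nothing in the labels says that a number marks a shared culture or day. Unknown read depth limits every statement of absence.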
